A study of Mus musculus with 9 samples.

Results

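In chromatin accessibility data from mouse naive CD4+ T cells, 533 of the 16126 genes named by a peak were named by 20 or more open chromatin peaks each. These genes were chosen by counting how often each gene symbol occurs in the authors' peak table, so the number of peaks is the selection rule and not a result. Together they hold 17422 of the 115727 listed peaks (15.1%), whereas 41627 intergenic peaks name no gene. The assay, ATAC-seq, uses a transposase that cuts and tags open DNA, so that the reads in a peak count its insertions there. The cells were untreated C57BL/6 naive CD4+ T cells taken straight from the animal and enriched with a commercial isolation kit, 50000 cells per library. They came from 3 genotypes with 3 libraries each, which are WT, Stat6_KO (labelled Stat6 KO) and Il21e_KO (labelled Il21e KO in one field and IL21KO in another). The labels do not say which DNA the Il21e allele lacks, whether either deletion acts in all cells, the age of the mice, or whether the 3 libraries of a group came from separate animals. The p-values therefore measure the spread between these libraries, which may be technical.

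Open chromatin in a gene body lies mostly at the promoter, where transcription starts, and at introns that can hold enhancers, short stretches bound by transcription factors that act on a promoter at a distance. Genes that specify a cell type often carry many such elements, and long genes offer more room for them. In naive CD4+ T cells, factors such as Foxp1, Lef1, Bcl11b, Ets1 and Runx1 keep the cells quiescent and committed to the T lineage. Stat6 is the transcription factor activated by interleukin-4, and interleukin-21, encoded by Il21, is a cytokine made mainly by activated helper T cells.

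Reads in peaks numbered 1049460 to 1802405 per library, with the lowest number in Il21e_KO 1. Reads at transcription start sites (TSS) took 42.7% of all reads in Il21e_KO 1, 36.4% and 35.6% in WT 1 and WT 2, and between 31.6% and 33.3% in the other 6 libraries. The peak over exon 12 of Stat6 held 6.73, 7.01 and 12.3 CPM (the reads of a peak after scaling every library to the same total over the listed peaks) in WT, 4.76, 9.45 and 7.21 in Il21e_KO and 2.84, 1.77 and 1.83 in Stat6_KO, so the 3 libraries labelled Stat6_KO were lowest there. The peak over exon 16 went the other way, at 5.51, 9.34 and 10.96 CPM in WT, 1.91, 6.93 and 7.77 in Il21e_KO and 23.3, 19.4 and 15.3 in Stat6_KO. Over its 3 peaks Stat6 summed to 96.1, 87.98 and 79.97 CPM in WT and 90.4, 84.2 and 85.6 in Stat6_KO, which overlap. The 6 Il21 peaks summed to 4.28, 4.67 and 5.16 CPM in WT, 5.72, 7.56 and 6.103 in Il21e_KO and 8.52, 5.299 and 6.12 in Stat6_KO, with the 3 WT libraries lowest. That order rests on few reads, since no Il21 peak held more than 3.15 CPM in any library. WT 3 and Stat6_KO 2 lay closer than 1 read, which is 0.645 and 0.589 CPM there. Since the labels do not say what the Il21e allele lacks, these peaks do not check the Il21e_KO label. The naive CD4 T cell genes were open, with Cd4 at 60.1 CPM, Cd3e at 47.6, Tcf7 at 194 and Lef1 at 591, averaged over the libraries. Of the 8, 2, 6, 5 and 5 named genes listed as markers of B cells, CD8 T cells, NK cells, myeloid cells and erythroid cells, 0 had 20 peaks. The share was 3.31% over all named genes, and 1 of 10 in the naive CD4 T cell list. With so few genes, the 0 does not show that other cells were absent. The 8 B cell markers had a median of 9.30 CPM per gene, with Cd79a at 3.03. The 8 B cell markers together ranged from 109.5 to 176 CPM per library in WT, from 74.3 to 161 in Il21e_KO and from 151 to 173 in Stat6_KO. Over the 9 libraries the sums were 52.4 to 69.0 CPM for the NK markers and 56.3 to 72.2 for the CD8 markers. They were 127 to 192 for the myeloid and 106 to 134 for the erythroid markers. Itgam, a myeloid integrin, and Cd8b1, a CD8 chain, held 80.7 and 48.4 CPM. The part of other cells in the values below was not tested.

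Promoter sequences show what the start of these genes looks like. RefSeq promoters (GRCm38.p6, 250 bases before to 50 after a start) were matched by symbol for 411 of the 533 genes, which gave 661 promoters. The promoters of 4 of the 12 genes with most peaks are printed here from the outermost listed start, as examples chosen after their values were seen. In each of them the strongest peak lies at a TSS, as it does in Itpr2, Sgms1 and Skap1 among the same 12. Capitals mark matches, on either strand, to the motifs named after them.
Foxp1: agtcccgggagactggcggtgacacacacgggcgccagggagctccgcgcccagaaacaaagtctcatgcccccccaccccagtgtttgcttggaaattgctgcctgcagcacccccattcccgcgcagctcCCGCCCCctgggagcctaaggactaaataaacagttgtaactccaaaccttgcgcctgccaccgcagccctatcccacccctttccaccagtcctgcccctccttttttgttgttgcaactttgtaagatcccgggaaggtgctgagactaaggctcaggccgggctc
Inpp4b: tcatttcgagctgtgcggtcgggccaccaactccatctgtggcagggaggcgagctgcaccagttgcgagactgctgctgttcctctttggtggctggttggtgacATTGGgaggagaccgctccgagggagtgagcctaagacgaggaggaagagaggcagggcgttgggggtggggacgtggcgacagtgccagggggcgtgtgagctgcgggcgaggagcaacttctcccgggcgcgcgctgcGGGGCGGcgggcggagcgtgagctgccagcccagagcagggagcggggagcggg
Arid1b: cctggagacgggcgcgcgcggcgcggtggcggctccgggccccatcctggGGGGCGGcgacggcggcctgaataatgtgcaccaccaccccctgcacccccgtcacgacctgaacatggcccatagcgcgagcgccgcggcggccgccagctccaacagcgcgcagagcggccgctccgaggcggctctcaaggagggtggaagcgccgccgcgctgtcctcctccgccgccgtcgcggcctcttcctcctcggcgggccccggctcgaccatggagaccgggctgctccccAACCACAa
Ppm1h: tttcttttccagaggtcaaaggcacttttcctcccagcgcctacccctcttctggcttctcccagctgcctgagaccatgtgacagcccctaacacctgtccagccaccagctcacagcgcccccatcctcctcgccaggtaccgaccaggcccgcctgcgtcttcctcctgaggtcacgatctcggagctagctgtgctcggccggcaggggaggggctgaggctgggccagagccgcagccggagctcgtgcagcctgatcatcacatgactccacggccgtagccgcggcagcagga

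The Foxp1 promoter, chr6:99520944-99521243 on the minus strand, holds 1 SP/KLF match at base 133, counted from its 5′ end. The Inpp4b promoter, chr8:81342312-81342611 on the plus strand, holds an NFY match at base 107 and an SP/KLF match at base 247. The Arid1b promoter, chr17:4994824-4995123 on the plus strand, is the richest in G and C of the 4 (75.3%) and holds an SP/KLF match at base 51 and a RUNX match at base 293. The Ppm1h promoter, chr10:122678512-122678811 on the plus strand, holds none of the 9 motifs searched, which says only that these letters are not in the window.

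Over the 661 promoters the median content of G and C was 61.7%, against 59.7% in 14663 promoters of the other genes named by a peak and 52.7% in all 32851 promoters of the table. At least 10 CpG, a C followed by a G, were present in 66.4%, against 70.6% of the other named promoters and 43.5% of all. The SP/KLF motif GGGGCGG was present in 40.5% of the 661 promoters, against 38.1% of the other named promoters and 23.2% of all. The ETS motif CCGGAAG was present in 6.35%, against 14.5% and 8.86%, so it was found less often at the starts of the peak-dense genes than in either comparison. The NFY motif ATTGG was in 32.7% (37.2% and 37.4%), the RUNX motif TGTGGTT in 2.72% (3.99% and 5.27%) and the TCF/LEF motif CTTTGAA in 3.18% (3.75% and 5.14%). The AP-1 motif TGACTCA was in 4.69% (4.15% and 5.20%), the CREB/ATF motif TGACGTCA in 2.12% (2.84% and 1.79%) and the NRF1 motif, searched as its palindromic core, in 0.908% (1.74% and 0.971%). The STAT6 motif, TTC and GAA with any 4 bases between them, was in 4.39% (5.61% and 6.95%). These shares are descriptions with no test, and genes with several listed starts enter more than once.

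The peak-dense genes are mostly long genes. Their longest listed transcript had a median of 151 kb and ranged from 27.6 kb (Vps37b, a sorting-complex subunit) to 1612 kb (Fhit, at a fragile site), against a median of 20.9 kb over all 16126 genes. Only 6 of 12046 genes of up to 50 kb (0.0498%) had 20 peaks. The share was larger among longer genes, at 116 of 2124 genes between 50 and 100 kb (5.46%), 222 of 1187 between 100 and 200 kb (18.7%) and 135 of 512 between 200 and 400 kb (26.4%). Above 400 kb it was 54 of 257 (21.0%), so length did not fix membership. The 4 longest genes of the table had few peaks, with 6 in Ptprd (2271 kb), 2 in Dmd (2256 kb), 10 in Cntnap2 (2241 kb) and 4 in Lrp1b (2057 kb), genes best known from neurons and muscle. Across genes, the Spearman correlation of peak number with transcript length was 0.61 over all genes and 0.37 within the 533. These are descriptions across genes, which share the same 9 libraries and are not replicates.

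Most of the genes stood close to the threshold. The median was 28 peaks, 311 of the 533 (58.3%) had 20 to 29, 59 had 50 or more and 2 had 100 or more. At the threshold itself, 48 genes had exactly 20 peaks and 62 had exactly 19. Of the genes with 20, in alphabetical order, Abl2 summed to 125 CPM, Adcy7 to 169, Adk to 131, Agfg1 to 103 and Ahcyl2 to 159.9. Just outside, with 19, Abr summed to 203 CPM, Ambra1 to 129.9, Ankrd12 to 95.1, Ap1b1 to 139 and Arhgap39 to 204, a range that overlaps the first.

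Peak density, the number of peaks per 100 kb of the longest transcript, separated compact from diffuse genes. Its median was 20.4 in the 533 genes and 14.6 over all genes. The densest were Vps37b (72.4 per 100 kb), Sfi1 (69.8), Mroh2a (62.4), Rara, a retinoic acid receptor (53.7), Ets1 (53.4) and Bcl11b (52.7). The sparsest were Immp2l (1.76), Fhit (2.48) and Nlgn1 (2.89), whose transcripts are far longer than the median. Within a single window of 50 kb, Sfi1 held 35 peaks, Bcl11b 34, Lef1 32 and Mbnl1 29. Sfi1, Zfp982 and Gm21190 lie, as background, in regions or families with near-identical copies, and how reads that fit several copies were counted is not given in the sources used here, so their values are uncertain. By chromosome, peak-dense genes made up 5.68% of the named genes on chromosome 12, 5.40% on 15 and 5.09% on 13, but 3 of 462 (0.649%) on X, against 3.31% overall.

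**Figure D1:**
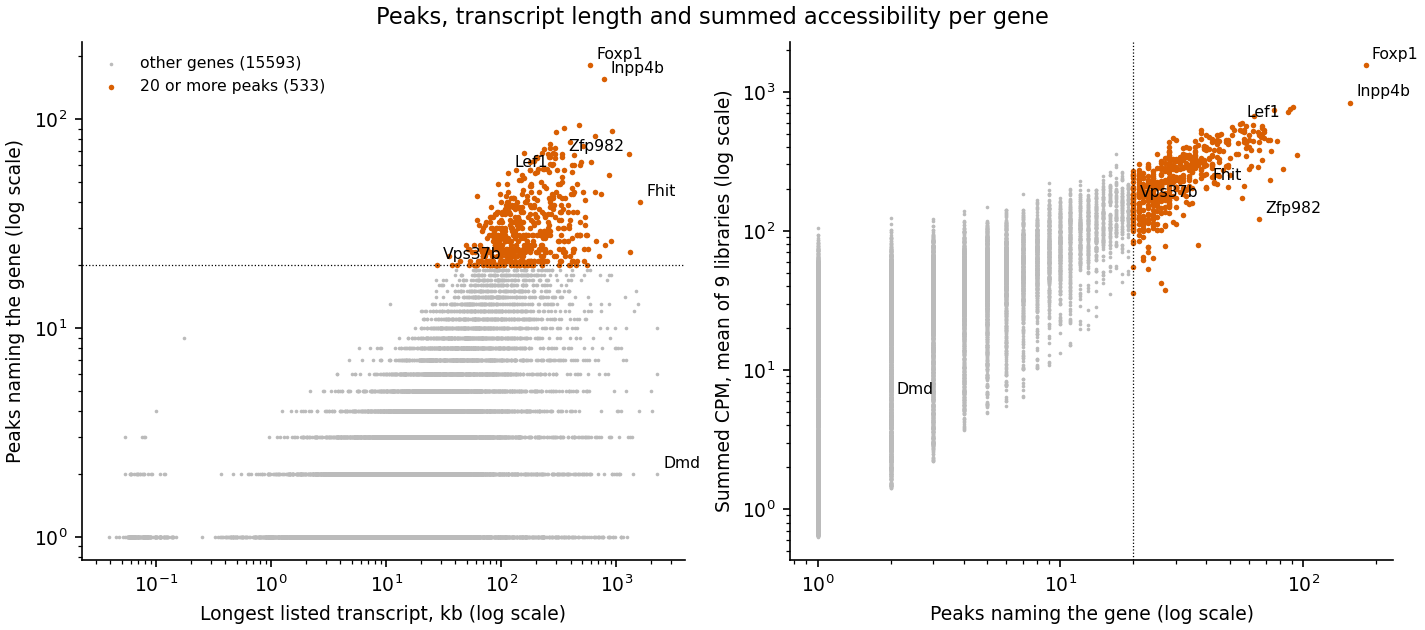
Left, peaks naming a gene against its longest listed transcript in kb. Right, summed CPM (mean of 9 libraries) against peaks, both with log axes and 1 point per gene. The 533 genes with 20 or more peaks (orange) lie above 27.6 kb, while long genes such as Dmd have few peaks. Zfp982 lies low for its 66 peaks.

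Summed accessibility, the CPM over all peaks of a gene, had a median of 228 CPM in the 533 genes, a lowest value of 35.99 (Ncor1, a nuclear corepressor) and a highest of 1549 (Foxp1). Over all genes the median was 30.5 CPM. Together the 533 genes took 13.7% of all reads in peaks, slightly below their 15.1% of the peaks. The sum grows with the number of peaks added up, and the Spearman correlation between both was 0.73 across the 533 genes, so the order of the sums is partly set by the selection rule.

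Foxp1, a forkhead repressor that keeps naive T cells quiescent, had the most peaks (181) and the highest sum. It lies at chr6:98875336-99470988 (mm9). Its sum was 1573, 1499 and 1600.0 CPM in WT, 1512, 1580.4 and 1555 CPM in Il21e_KO and 1549.6, 1531 and 1539 CPM in Stat6_KO. The 9 libraries stayed within a narrow band and the groups overlapped. Inpp4b, a lipid phosphatase that acts on a product of PI 3-kinase, followed with 156 peaks at chr8:83866461-84651817. It summed to 814, 786 and 899.6 CPM in WT, 769, 842 and 846 CPM in Il21e_KO and 858, 875 and 838 CPM in Stat6_KO, again with overlapping groups. Next in peaks came Dock2, a Rac activator needed for lymphocyte migration (94 peaks, 350.1 CPM), and Arid1b, a subunit of the BAF chromatin remodeller (91 peaks, 776 CPM).

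Wwox, an oxidoreductase gene at a fragile site, had 88 peaks and 753 CPM, and Akap13, an anchor of protein kinase A, had 87 and 713. Arhgap15, which switches Rac off, had 83 peaks but only 278 CPM. The remaining genes of the 12 with most peaks were Itpr2, a calcium channel of the endoplasmic reticulum (78 peaks, 444 CPM), Sgms1, which makes sphingomyelin (76, 734), Elmo1, a partner of Dock2 (74, 378), Ppm1h, a protein phosphatase (73, 454), and Skap1, an adaptor of integrin activation (73, 232). The order by CPM differed from the order by peaks. Prkch, protein kinase C eta, reached 671 CPM from 63 peaks, Arhgef3, an activator of small GTPases, 595 from 56 and Lef1 591 from 55. Skap1 and Ppm1h had equal peak numbers and their sums differed: Skap1 gave 219, 194 and 263 CPM in WT, 175, 258 and 250.2 CPM in Il21e_KO and 263, 236 and 228 CPM in Stat6_KO, and Ppm1h gave 460.2, 471 and 449 CPM in WT, 513, 454 and 455 CPM in Il21e_KO and 431, 433 and 416 CPM in Stat6_KO, with every Ppm1h value above every Skap1 value.

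The strongest peak held a minor part of the sum in most of these genes. In the 533 genes it held a median of 18.1% of the gene's CPM, from 4.99% (Foxp1) to 65.6%, against 80.0% over all genes. The median over all genes was 2 peaks, so this contrast is tied to the number of peaks, which the rule sets, and is a description. The strongest Foxp1 peak, at a TSS (chr6:99471008-99473565), averaged 77.3 CPM. Of the 181 Foxp1 peaks, 47 averaged at least 10 CPM and 27 at least 20, and the median peak held 3.03 CPM. In Inpp4b, 26 of 156 reached 10 CPM, and a stretch of 91.8 kb near the start held no peak. Lef1, an HMG-box factor of the Wnt pathway, and Bcl11b, a zinc-finger factor of T cell commitment, were more compact. The median spacing between neighbouring peaks was 1.43 kb in Bcl11b, against 2.69 kb in Foxp1 and 2.79 kb in Inpp4b. In Lef1 19 of 55 peaks reached 10 CPM, and the strongest lay in intron 3 at 48.0 CPM. In Bcl11b 17 of 49 did, with the strongest in intron 1 at 38.1 CPM.

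**Figure D2:**
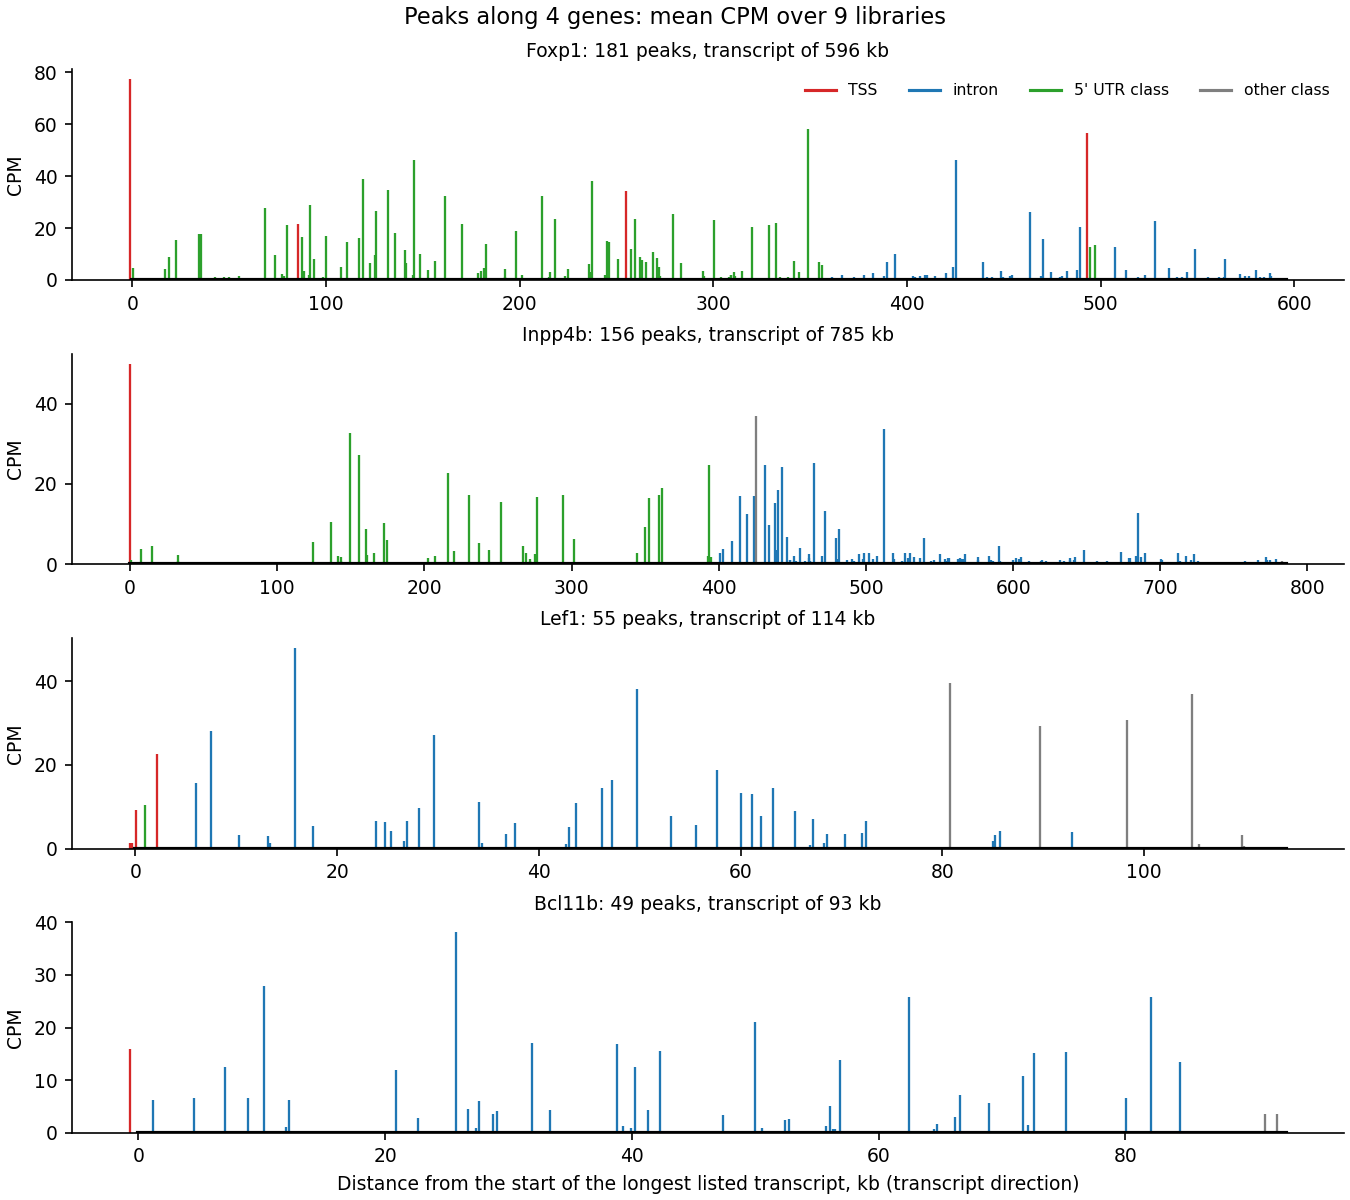
Peaks along Foxp1, Inpp4b, Lef1 and Bcl11b. Each line is 1 peak, placed by its distance in kb from the start of the longest listed transcript (black bar) and as high as its mean CPM over 9 libraries, coloured by the table's class. Strong peaks are spread over the whole body of Lef1 and Bcl11b, while in Inpp4b a stretch of 91.8 kb holds none.

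By the table's own classes, 67.2% of the peaks in the 533 genes lay in introns, 3485 peaks in a class named 5′ UTR exon, 5.54% in coding exons, 3.93% at a TSS, 2.45% in a class named 3′ UTR exon and 0.884% at transcript ends. The 5′ UTR class is not exonic in the usual sense. In Foxp1 it holds 103 peaks spread over 497 kb, so it covers introns upstream of the coding start. By reads, introns held 56.3% of the CPM, the 5′ UTR class 19.4% and TSS peaks 15.9%. In genes with 1 to 9 peaks, TSS peaks held 64.0% and introns 16.0%, and in genes with 10 to 19 peaks 29.5% and 44.3%. The TSS share is tied to the number of other peaks, which the rule sets, and is a description.

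Peak for peak, the promoters of the 533 genes were by median no weaker than those of other genes. Their TSS peaks had a median of 29.7 CPM, against 27.1 CPM in genes with 10 to 19 peaks and 23.2 CPM in genes with 1 to 9. Intron peaks had medians of 2.60, 2.34 and 2.13 CPM in the same order. The strongest peak was at a TSS in 301 of the 533 genes (56.5%), in an intron in 132, in the 5′ UTR class in 56 and in a coding exon in 36. No TSS peak was listed for 42 genes, and 129 had at least 2.

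**Figure D3:**
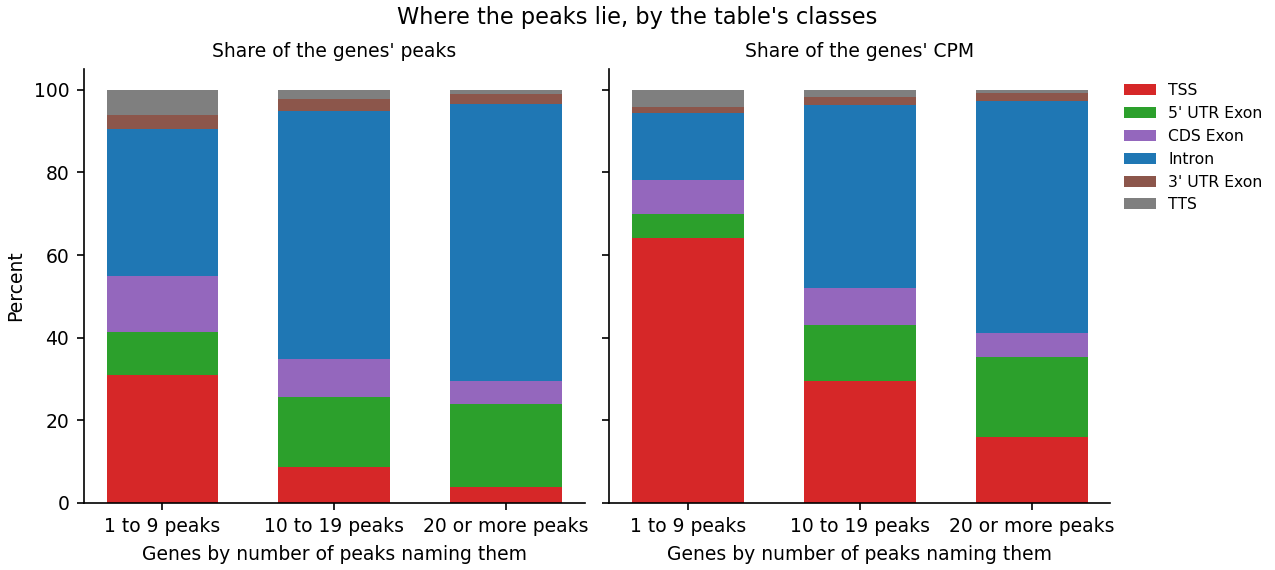
Share of peaks (left) and of CPM (right) in each of the table's classes, in percent, for genes grouped by the number of peaks naming them. TSS peaks hold 64.0% of the CPM in genes with 1 to 9 peaks and 15.9% in genes with 20 or more, where introns hold 56.3%.

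Transcription factors of T cells were often peak-dense: 29 of the 77 genes of the list had 20 peaks, against 3.31% of all named genes. The listed genes were also longer, with a median longest transcript of 61.8 kb against 20.9 kb over all genes. Their leaders were Foxp1, Runx1 (69 peaks), Etv6, an ETS-family repressor (58), Tox, an HMG-box factor of T cell development (57), and Lef1 (55). Runx1, a Runt-family factor of early T cell development, summed to 508, 505 and 538 CPM in WT, 469, 531 and 503 CPM in Il21e_KO and 527, 519 and 515 CPM in Stat6_KO. Lef1 summed to 614, 599 and 536 CPM in WT, 735, 579 and 534 CPM in Il21e_KO and 532, 577 and 608 CPM in Stat6_KO, where Il21e_KO 1 was far above the other 8 libraries. Etv6 gave 329, 379 and 384 CPM in WT, 261, 329 and 329.6 CPM in Il21e_KO and 355, 358 and 360.3 CPM in Stat6_KO, and there the same library was the lowest. Tcf7, the partner of Lef1, had 16 peaks and 194 CPM and stayed below the threshold.

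In T cell receptor signalling, 29 of 66 listed genes had 20 peaks, led by Inpp4b, Skap1, Prkch, Prkca (protein kinase C alpha, 60 peaks) and Cblb, a ubiquitin ligase that restrains activation (57). Prkch summed to 704, 686 and 662 CPM in WT, 800.4, 607 and 646 CPM in Il21e_KO and 615, 667 and 647 CPM in Stat6_KO. Cblb gave 502, 495 and 473 CPM in WT, 593, 507 and 473 CPM in Il21e_KO and 532, 525 and 517 CPM in Stat6_KO. In both genes Il21e_KO 1 held the highest value, and in Cblb the 3 Stat6_KO libraries lay above the 3 WT libraries. The receptor genes themselves were short and below the threshold, with Cd3e at 4 and Cd4 at 5 peaks.

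For cytoskeleton, migration and small GTPases the count was 26 of 63, led by Dock2, Arhgap15, Elmo1, Dock10 (a Cdc42 and Rac activator, 66 peaks) and Sipa1l1, which switches Rap off (61). Dock2 summed to 326, 325 and 389 CPM in WT, 354, 348 and 333 CPM in Il21e_KO and 365, 342 and 368 CPM in Stat6_KO. Its strongest peak lay in intron 1 and averaged 90.4 CPM, 25.8% of the gene's sum. Sipa1l1 gave 383 ± 14.3 CPM in WT, 385 ± 18.1 in Il21e_KO and 385 ± 4.56 in Stat6_KO (SD, n = 3). Both genes showed overlapping groups.

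Chromatin and transcription regulators held 38 of 82, led by Arid1b, Ncoa2, a coactivator of nuclear receptors (72 peaks), Mbnl1 (69), Rere, a corepressor (68), and Med13l, of the Mediator kinase module (66). Mbnl1 encodes an RNA-binding splicing regulator, not a chromatin protein. Ncoa2 summed to 439, 452 and 458 CPM in WT, 449, 455 and 441 CPM in Il21e_KO and 444, 430.4 and 459 CPM in Stat6_KO, with overlapping groups. Of cytokine, costimulatory and surface receptors 6 of 54 were peak-dense (11.1%), the lowest share of the 5 lists. The first 5 were Tgfbr3 (48 peaks), Jak1, the kinase of many cytokine receptors (45), Igf1r (37), Tgfbr2 (28) and Adam19, a membrane protease (24). Jak1 summed to 509, 476 and 446 CPM in WT, 529, 488 and 480.5 CPM in Il21e_KO and 501, 480.5 and 511 CPM in Stat6_KO. In all, 128 of the 533 genes were in one of these lists and 405 in none. The lists were chosen with earlier results of these data known, so these counts describe them and test nothing. The median longest transcript was 67.3 kb in the T cell receptor signalling list, 88.0 kb in the cytoskeleton list and 96.4 kb in the chromatin list. It was 27.8 kb in the receptor list, against 20.9 kb over all genes. The part of gene length in these shares was not tested.

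Across the 9 libraries the summed CPM of a peak-dense gene varied little. The median coefficient of variation (CV) was 6.43%, close to the 5.39% that counting error alone gives at these depths. In genes with 10 to 19 peaks the median CV was 9.02%, beside a counting value of 8.16%. In 60 of the 533 genes (11.3%) the CV was more than 2 times the counting value, a share not computed for other genes. The most variable genes were Gm21190, a predicted gene (CV 36.7%), Mroh2a, a HEAT-repeat gene (36.6%), Nlgn1, a synaptic adhesion protein (34.1%), Zfp982, a zinc-finger gene (27.4%), and Rbfox3, a neuronal splicing factor (25.3%). All 5 have no TSS peak and weak peaks, with 1.39 CPM per peak in Gm21190. Zfp982 summed to 73.4, 77.9 and 127 CPM in WT, 89.6, 161 and 149 CPM in Il21e_KO and 155, 136 and 130.3 CPM in Stat6_KO. Nlgn1 gave 21.4, 28.03 and 42.6 CPM in WT, 24.8, 57.97 and 58.8 CPM in Il21e_KO and 47.7, 54.2 and 41.6 CPM in Stat6_KO. Both were lowest in WT 1, WT 2 and Il21e_KO 1, the 3 libraries with the highest share of reads at TSS peaks.

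The same libraries were lowest over the whole weak end. The 53 genes with the lowest CPM per peak (1.39 to 5.01) summed to 6345, 6463 and 7336 CPM in WT, 5893, 7159 and 7113 CPM in Il21e_KO and 7462, 7264 and 7139 CPM in Stat6_KO, a CV of 7.80%. The 53 with the highest CPM per peak (11.2 to 16.0) summed to 17915, 17817 and 17701 CPM in WT, 18173, 17525 and 17376 CPM in Il21e_KO and 17373, 17377 and 17705 CPM in Stat6_KO, a CV of 1.57%, and there WT 1, WT 2 and Il21e_KO 1 were the highest. The part of the TSS share in these differences was not tested.

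As a share of all reads in peaks, the 533 genes took 13.6%, 13.6% and 14.03% in WT, 13.2%, 13.7% and 13.7% in Il21e_KO, and 13.8%, 13.8% and 13.9% in Stat6_KO. The mean was 13.7 ± 0.255% (SD, n = 3) in WT, 13.6 ± 0.279% in Il21e_KO and 13.9 ± 0.0690% in Stat6_KO. The Stat6_KO mean was 0.124 percentage points above WT (exact permutation test, 2-sided, p = 0.4) and 0.310 above Il21e_KO (p = 0.1, the smallest p that 3 against 3 libraries can give in this exact permutation test). Il21e_KO was 0.186 points below WT (exact permutation p = 0.6). Of reads outside TSS peaks, an alternative chosen after seeing the data, the genes took 17.6 ± 0.117% in WT, 17.7 ± 0.612% in Il21e_KO and 17.5 ± 0.159% in Stat6_KO, and all 3 differences turned their sign. TSS peaks took 17.2%, 17.0% and 14.4% of the 533 genes' reads in WT, 20.3%, 14.98% and 15.03% in Il21e_KO and 14.04%, 15.2% and 14.98% in Stat6_KO, with exact permutation p of 0.3 for Stat6_KO against WT, 0.8 for Il21e_KO against WT and 0.5 for Stat6_KO against Il21e_KO. These 6 tests make 1 family, over which the Benjamini-Hochberg adjusted p from these exact permutation tests was 0.6 for the smallest p and between 0.72 and 0.8 for the others.

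**Figure D4:**
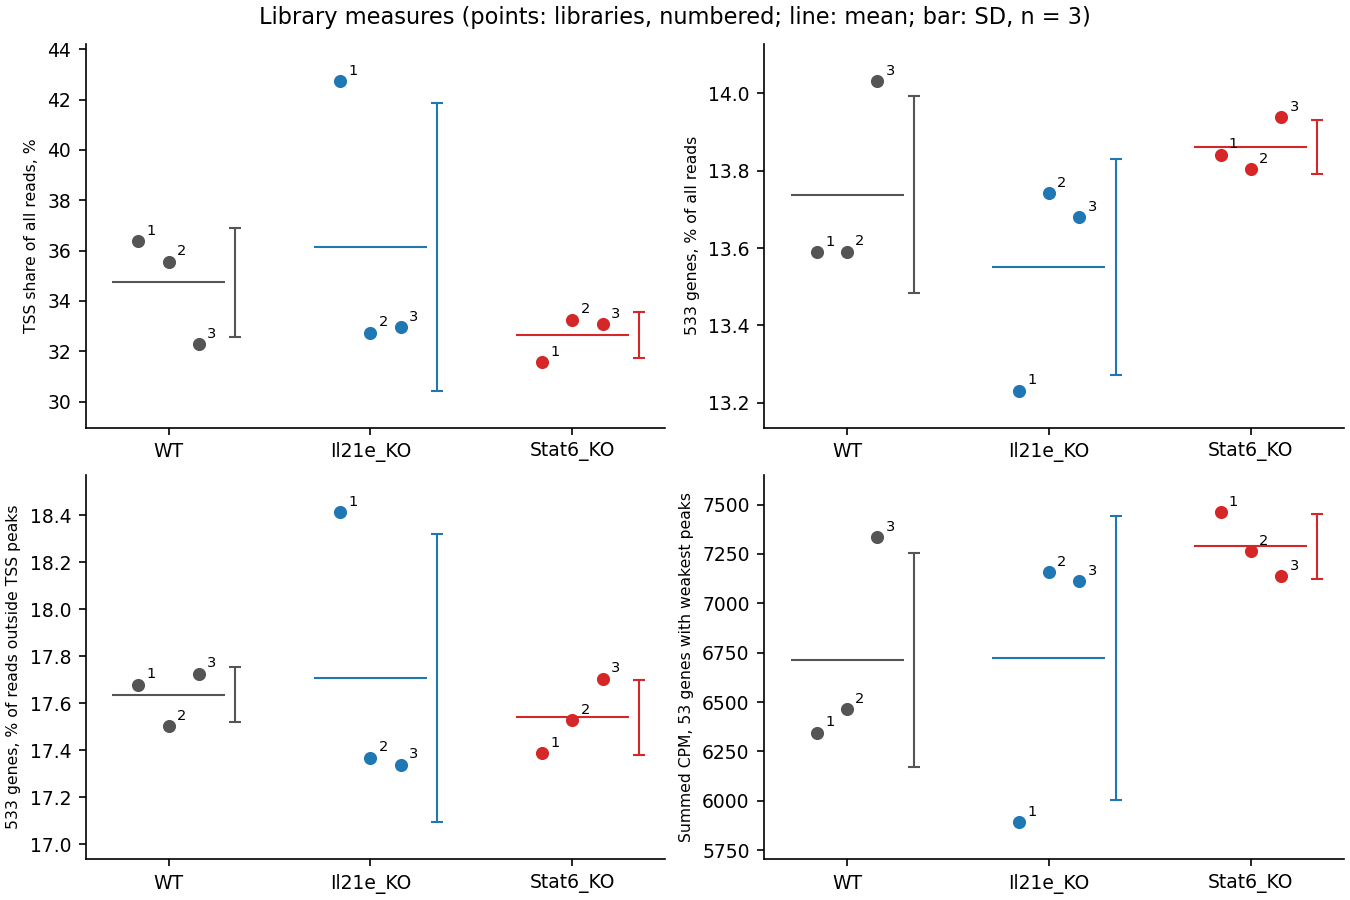
Each point is a library, numbered by replicate, with the group mean (line) and SD (bar, n = 3). The panels show the TSS share of all reads, the share of reads in the 533 genes over all peaks and outside TSS peaks (percent), and the summed CPM of the 53 genes with the weakest peaks. Il21e_KO 1 has the highest TSS share (42.7%) and the lowest sum over the weak peaks (5893 CPM). Axes do not start at 0.

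No peak-dense gene passed the test for a difference in summed CPM between genotypes. By limma-trend over all 14052 genes tested, 0 of 533 passed a false discovery rate (FDR) of 0.05 in Stat6_KO against WT, in Il21e_KO against WT or in Stat6_KO against Il21e_KO, where 0% of all genes tested passed too. The lowest adjusted p among them was 0.9996, 0.9998 and 0.776, and edgeR and DESeq2 on the recovered reads also gave 0. At an unadjusted p under 0.05, 23 genes were higher (4.32%, against 1.57% of all genes) and 7 lower (1.31%, 1.51%) in Stat6_KO against WT. In Il21e_KO against WT 11 were higher (2.06%, 1.15%) and 21 lower (3.94%, 1.47%), and in Stat6_KO against Il21e_KO 46 were higher (8.63%, 2.73%) and 7 lower (1.31%, 2.72%). The 3 comparisons share groups and are not independent. In Stat6_KO against Il21e_KO the number in either direction depended on single libraries. By limma-trend leaving out 1 library, it ranged from 21 (without Stat6_KO 1) to 95 (without Il21e_KO 2), and was 28 without Il21e_KO 1. Counted by groups whose libraries did not overlap, 65 genes were higher (12.2%, 6.95% of all genes) and 41 lower (7.69%, 7.64%) in Stat6_KO against WT. In Il21e_KO against WT 16 were higher (3%, 3.09%) and 23 lower (4.32%, 3.24%), and in Stat6_KO against Il21e_KO 66 were higher (12.4%, 4.99%) and 17 lower (3.19%, 5.61%). By edgeR 32, 25 and 45 of the 533 genes had an unadjusted p under 0.05 in these comparisons, and by DESeq2 13, 11 and 20.

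The differences were small and the sums precise. The median log2 difference was 0.02 in Stat6_KO against WT (-0.02 over all genes tested), -0.02 in Il21e_KO against WT (0.01) and 0.04 in Stat6_KO against Il21e_KO (-0.02). In these comparisons 97.4%, 97.4% and 96.1% of the 533 genes lay within 1.2-fold. The median standard error was 0.08 on the log2 scale, against 0.19 over all genes. 

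**Figure D5:**
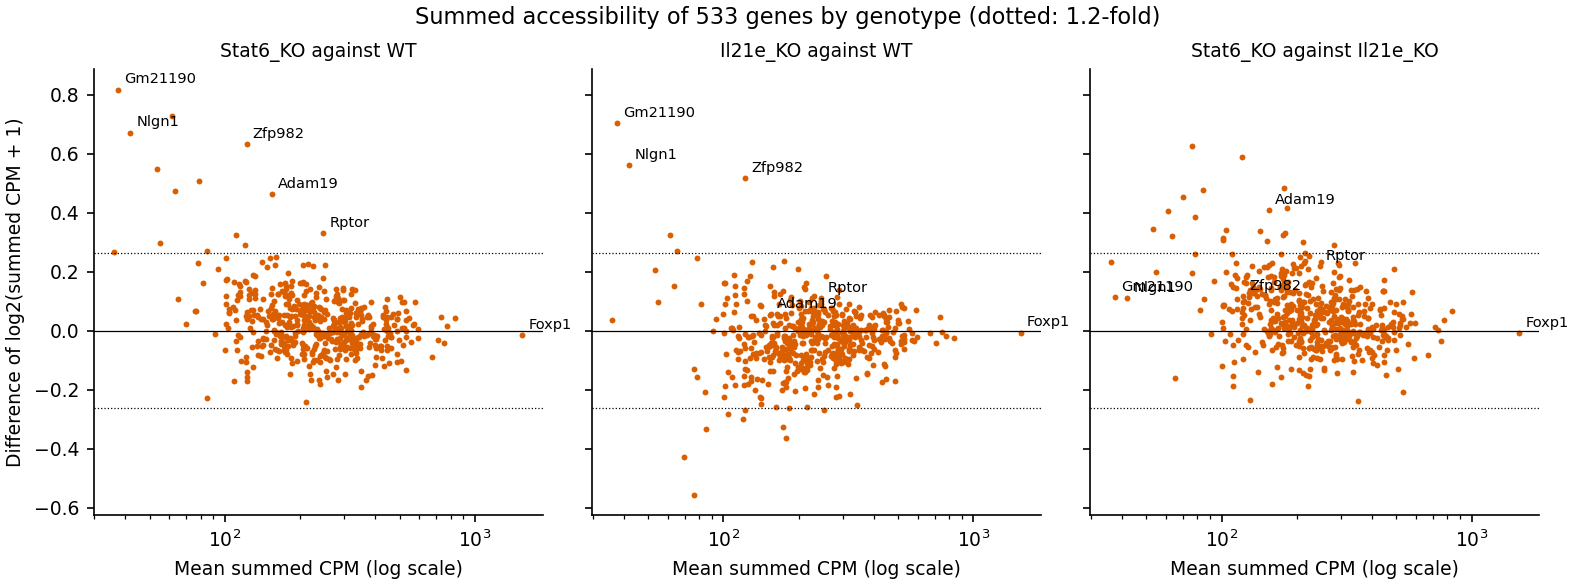
Difference of log2(summed CPM + 1) between genotypes for the 533 genes against their mean summed CPM (log axis), 1 point per gene. Dotted lines mark 1.2-fold. Most points lie between the lines, and Gm21190, Nlgn1 and Zfp982, with weak peaks, stand out in both comparisons with WT.

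By role, 0 of the peak-dense genes passed in any list. The 29 transcription factor genes had a median log2 difference of -0.03 in Stat6_KO against WT, -0.05 in Il21e_KO against WT and 0.01 in Stat6_KO against Il21e_KO. For the 29 T cell receptor signalling genes the medians were -0.02, -0.01 and 0.01, and for the 26 cytoskeleton genes 0.01, 0.00 and 0.02. The 38 chromatin and transcription regulators had 0.03, -0.01 and 0.04. The 6 receptor genes had 0.05, 0.06 and 0.01.

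The genes with the smallest p in Stat6_KO against WT are given by value, although 0 passed. Rptor, a subunit of the growth-controlling kinase complex mTORC1, summed to 224, 199 and 243 CPM in WT, 213, 277 and 231 CPM in Il21e_KO and 267, 279 and 291 CPM in Stat6_KO. All 3 Stat6_KO libraries were above the WT libraries, by 0.33 ± 0.09 (SE), with an unadjusted p of 0.00255. Adam19 gave 122, 130.0 and 153 CPM in WT, 105, 159 and 164 CPM in Il21e_KO and 182, 184 and 191 CPM in Stat6_KO, again without overlap with WT, a difference of 0.46 ± 0.13 (SE), with an unadjusted p of 0.00354. Arhgef10l, an activator of small GTPases, differed by 0.55 ± 0.18 (SE), with an unadjusted p of 0.00674, from 44.6 ± 10.9 CPM in WT to 64.4 ± 0.886 in Stat6_KO (SD, n = 3). Without WT 1, at 33.04 CPM, the Arhgef10l difference was 0.35. Lower in Stat6_KO were Pik3r5, a regulatory subunit of PI 3-kinase gamma (-0.24 ± 0.08, with an unadjusted p of 0.00611), Spata13, a GTPase activator (-0.17 ± 0.06), and Gtf2i, a general transcription factor (-0.17 ± 0.06). Pik3r5 held 229, 234 and 219.9 CPM in WT, 237, 197 and 206 CPM in Il21e_KO and 184, 196 and 198 CPM in Stat6_KO, with the lowest WT library above the highest Stat6_KO library.

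In Il21e_KO against WT the smallest p among genes belonged to Nsmce2, a SUMO ligase of the SMC5/6 complex, at 327, 352 and 344 CPM in WT, 281, 297 and 304 CPM in Il21e_KO and 322, 337 and 333 CPM in Stat6_KO. The 3 Il21e_KO libraries were below the WT libraries, with a difference of -0.21 ± 0.06 (SE), with an unadjusted p of 0.00151. The predicted gene 1700025G04Rik held 283, 278 and 279.9 CPM in WT, 246, 247 and 246 CPM in Il21e_KO and 261, 271 and 253 CPM in Stat6_KO (-0.18 ± 0.06), and Tox held 452, 455 and 479.8 CPM in WT, 397, 413 and 419 CPM in Il21e_KO and 452, 403 and 423 CPM in Stat6_KO (-0.17 ± 0.05). In all 3 genes WT and Il21e_KO did not overlap. Higher were Sptbn1, a spectrin (0.18 ± 0.06), Iffo2 (0.24 ± 0.08) and Dusp10, a phosphatase that turns off MAP kinases (0.21 ± 0.08). Without Il21e_KO 1 the Dusp10 difference was 0.13. Leaving out 1 library, the lowest Iffo2 difference was 0.17.

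Stat6_KO against Il21e_KO gave Trak1, a mitochondrial transport adaptor (0.32 ± 0.09 (SE), with an unadjusted p of 0.00193), Abi1, a regulator of actin branching (0.30 ± 0.09), and Zfhx3, a homeobox factor (0.41 ± 0.13), as the smallest p on the higher side. Leaving out 1 library, the lowest Trak1 and Abi1 differences were 0.24 and 0.25. Zfhx3 held 182, 174 and 202 CPM in WT, 116, 168 and 189 CPM in Il21e_KO and 207, 211 and 201 CPM in Stat6_KO, so its difference is largest against Il21e_KO 1 and was 0.21 on the log2 scale without that library. On the lower side were Ppm1h (-0.15 ± 0.05), Hivep2, a zinc-finger factor (-0.21 ± 0.08), and Cd47, the surface signal against phagocytosis (-0.24 ± 0.10). Hivep2 held 515, 571 and 520.4 CPM in WT, 674, 515 and 516 CPM in Il21e_KO and 464, 496 and 503 CPM in Stat6_KO, where Il21e_KO 1 was again apart, and without it the difference was -0.08. Without it the difference was -0.13 for Cd47 and -0.09 for Ppm1h.

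Of the 17422 peaks, 6759 had enough reads to be tested, and 0 passed FDR 0.05 by limma-trend in any comparison. Over all 48287 peaks tested, 0.0104% passed in Stat6_KO against WT, 0.0104% in Stat6_KO against Il21e_KO and 0% in Il21e_KO against WT. The lowest adjusted p among the 6759 was 0.939, 0.780 and 0.9998 in that order, and edgeR and DESeq2 gave 0 as well. At an unadjusted p under 0.05, 157 peaks were higher (2.32%, against 1.68% of all peaks tested) and 122 lower (1.81%, 1.62%) in Stat6_KO against WT. The numbers were 62 (0.917%, 1.1%) and 207 (3.06%, 2.41%) in Il21e_KO against WT, and 279 (4.13%, 3.31%) and 141 (2.09%, 2.38%) in Stat6_KO against Il21e_KO. Groups without overlap were seen for 511 peaks higher (7.56%, 6.31%) and 448 lower (6.63%, 6.89%) in Stat6_KO against WT, 173 (2.56%, 2.84%) and 347 (5.13%, 4.44%) in Il21e_KO against WT, and 575 (8.51%, 6.45%) and 269 (3.98%, 4.59%) in Stat6_KO against Il21e_KO. By edgeR 305, 184 and 336 of the peaks had an unadjusted p under 0.05 in Stat6_KO against WT, Il21e_KO against WT and Stat6_KO against Il21e_KO, and by DESeq2 82, 49 and 121. The other 10663 peaks held too few reads for this test.

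Among the tested peaks, the smallest p in Stat6_KO against WT belonged to a peak in intron 2 of Dusp10 (chr1:185881201-185881899, mm9). It held 6.73, 7.79 and 4.51 CPM in WT, 5.72, 9.45 and 12.8 CPM in Il21e_KO and 18.2, 16.5 and 15.9 CPM in Stat6_KO. The Stat6_KO libraries were all above the others, by 1.31 ± 0.28 (SE), unadjusted p of 0.00021 against WT. A peak in intron 3 of Elovl5, a fatty acid elongase (chr9:77815313-77815774), held 1, 4 and 5 reads in WT, 3, 8 and 15 in Il21e_KO and 17, 17 and 13 in Stat6_KO. Its difference was 1.74 ± 0.46 (SE), unadjusted p of 0.00149. In intron 4 of Ssbp3, a cofactor of LIM-domain factors (chr4:106607429-106608357), the values were 15.97 ± 3.56 CPM in WT, 19.8 ± 3.18 in Il21e_KO and 27.3 ± 1.01 in Stat6_KO (SD, n = 3), a difference of 0.76 ± 0.20.

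Lower in Stat6_KO were 2 peaks of Ppm1h, whose promoter is printed above. The peak in intron 4 (chr10:122251975-122252807) held 19.6, 11.7 and 18.7 CPM in WT, 17.2, 17.01 and 20.5 CPM in Il21e_KO and 5.11, 7.07 and 11.01 CPM in Stat6_KO. Every Stat6_KO library was below every other library, with a difference of -1.04 ± 0.26 (SE), unadjusted p of 0.00102 against WT, and of -1.19 ± 0.26 (SE), unadjusted p of 0.000292 against Il21e_KO. The peak in intron 3 (chr10:122244012-122244702) held 15.3, 15.6 and 11.6 CPM in WT, 13.3, 13.2 and 17.2 CPM in Il21e_KO and 7.39, 8.24 and 4.89 CPM in Stat6_KO, without overlap either, with differences of -0.97 ± 0.24 and -1.01 ± 0.24. The TSS peak of Ppm1h averaged 51.5 CPM. Ppm1h lies 4.70 Mb from Stat6 on chromosome 10. Rassf3, the other peak-dense gene within 10 Mb of Stat6, differed by 0.12 ± 0.09 in summed CPM in Stat6_KO against WT, with an unadjusted p of 0.180 by limma-trend. The part of the position in these differences was not tested. A peak in intron 8 of Wwox (chr8:117403492-117404223) held 16.7 ± 3.66 CPM in WT, 16.8 ± 4.53 in Il21e_KO and 8.28 ± 1.27 in Stat6_KO (SD, n = 3), a difference of -0.92 ± 0.24 between Stat6_KO and WT.

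In Stat6_KO against Il21e_KO, the peaks with small p on the higher side included intron 10 of Sfi1 (1.06 ± 0.27) and intron 2 of Arhgef3 (0.99 ± 0.27). The Arhgef3 peak held 4.76, 11.97 and 9.43 CPM in Il21e_KO, and without Il21e_KO 1 its difference was 0.65. A peak in intron 1 of Dock10 (chr1:80724667-80725334) was lower, at 13.5, 17.1 and 14.8 CPM in WT, 20.01, 16.4 and 14.98 CPM in Il21e_KO and 7.39, 10.01 and 7.95 CPM in Stat6_KO, a difference of -0.94 ± 0.22 (SE), unadjusted p of 0.000409.

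Il21e_KO against WT gave, on the higher side, intron 5 of Osbpl9, a lipid transfer protein (chr4:108766780-108767620), at 7.95, 12.5 and 7.74 CPM in WT, 16.2, 21.4 and 19.4 CPM in Il21e_KO and 14.2, 15.9 and 20.8 CPM in Stat6_KO, a difference of 0.97 ± 0.23 (SE), unadjusted p of 0.000609. All Il21e_KO libraries were above the WT libraries there. Intron 1 of Zfp982 held 1, 0 and 1 reads in WT, 7, 12 and 13 in Il21e_KO and 5, 1 and 8 in Stat6_KO. In intron 9 of Il6ra, the interleukin-6 receptor, the difference was 1.00 ± 0.30, with Il21e_KO 1 at 36.2 CPM, and without that library it was 0.55. Lower were intron 2 of Sgk1, a kinase downstream of PI 3-kinase (15.3, 17.9 and 17.4 CPM in WT, 4.76, 10.7 and 9.43 CPM in Il21e_KO and 12.5, 14.7 and 11.6 CPM in Stat6_KO, a difference of -1.003), intron 5 of Prdm2, a zinc-finger methyltransferase gene (-1.30 ± 0.35), and intron 3 of Slco3a1, an organic anion transporter (-1.25 ± 0.35). Without Il21e_KO 1 the Sgk1 difference was -0.69.

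These counts of 0 depended on the libraries and the filter. With no filter on low reads, 1 peak passed in Stat6_KO against Il21e_KO (0.0138% of all peaks). Without Il21e_KO 1, which stood apart in depth and TSS share, 9 genes passed in Stat6_KO against WT by limma-trend, all higher: Adam19, Arhgef10l, Fam196b, Gm21190, Mroh2a, Nlgn1, Rbfox3, Rptor and Zfp982. These genes are named because they passed, after their values were seen. The library belongs to neither group of that comparison, so the differences stayed as given above and the standard errors became smaller. In this fit 0.312% of all 14125 genes tested passed. Adam19 differed by 0.46 ± 0.07 with an adjusted p of 0.000244, Rptor by 0.33 ± 0.06 with an adjusted p of 0.00488 and Zfp982 by 0.63 ± 0.10 with an adjusted p of 0.000448. In all 9 genes WT 1 and WT 2, with the highest TSS share of the libraries left, held the lowest values. All but Adam19 and Rptor are among the 53 genes with the lowest CPM per peak. The part of the TSS share in these calls was not tested.

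In Il21e_KO against WT, 5 genes passed without Il21e_KO 1 (0.113% of all genes), namely Fam196b, Gm21190, Mroh2a, Nlgn1 and Zfp982, all higher, with Zfp982 at 0.78 ± 0.12 with an adjusted p of 0.00024 by limma-trend. Fam196b lies within Dock2 on the opposite strand by the table's transcripts, so which of both genes its peaks belong to is uncertain. The 5 genes also passed in Stat6_KO against WT, and both comparisons share the WT libraries. Gm21190 held 18.97, 19.5 and 38.7 CPM in WT, 23.8, 48.5 and 56.04 CPM in Il21e_KO and 47.7, 46.5 and 37.3 CPM in Stat6_KO, and Mroh2a 31.8, 43.6 and 63.8 CPM in WT, 29.5, 71.8 and 82.7 CPM in Il21e_KO and 77.9, 92.4 and 57.5 CPM in Stat6_KO. Without Il21e_KO 1, WT 1 and WT 2 remained the libraries with the highest TSS share and the lowest values of all 5 genes. The part of that share in these calls was not tested.

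Among peaks, 10 passed without Il21e_KO 1 in Stat6_KO against WT (0.123% of all peaks tested), 4 higher and 6 lower. The higher ones included peaks in Adam19, Dusp10 and Elovl5. The Adam19 peak, in the 5′ UTR class at chr11:45930008-45930589, held 5.51, 3.89 and 5.804 CPM in WT, 2.86, 10.1 and 9.99 CPM in Il21e_KO and 11.9, 13.5 and 14.7 CPM in Stat6_KO and differed by 1.26 ± 0.24 with an adjusted p of 0.00746. Lower were peaks in Ppm1h, Pik3r5, Gm20098, Thada, Sgms1 and Wwox. The Sgms1 peak (chr19:32271314-32272348) held 21.4, 24.1 and 25.2 CPM in WT, 42.9, 15.8 and 17.8 CPM in Il21e_KO and 13.1, 12.4 and 12.2 CPM in Stat6_KO, with Il21e_KO 1 far above all others. The Thada peak, in intron 21, held 39.8, 45.2 and 50.3 CPM in WT, 44.8, 30.9 and 28.9 CPM in Il21e_KO and 29.5, 28.3 and 27.5 CPM in Stat6_KO, a difference of -0.64 ± 0.14 with an adjusted p of 0.0331. In Stat6_KO against Il21e_KO, 1 peak passed (0.0353% of all), in intron 4 of Ppm1h. With only the libraries of Stat6_KO and WT in the fit, 4 peaks passed (0.0605% of all), among them those in Adam19, Dusp10 and Sgms1, and 6 genes did (Adam19, Fam196b, Gm21190, Mroh2a, Rptor and Zfp982, 0.185% of all).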

How the data were processed

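ATAC-seq peaks were taken from 1 table of 115727 peaks on mm9 that all 9 libraries share. Its values are CPM as the authors deposited them, scaled to each library's reads in the listed peaks. Per the submitters' processing notes, Bowtie 1.3.0, MACS2 2.0 and HOMER were used, with no roles given. How peaks were merged and reads filtered is not given in the sources used here. Merging and splitting of peaks sets the number of peaks per gene, and so the choice of genes. Gene symbols, classes, exon and intron numbers and transcripts are the table's own, and headers shifted against the contents were read by content. Peak lengths in bases are deposited by the authors in a column of other values. All values were whole multiples of 1 step per library (100% within 0.01 read), so reads were recovered. A count of 0 allows up to 3 reads, between 1.66 and 2.86 CPM by library, for counting error only, since PCR copies are not independent molecules.

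CPM was summed over all peaks of a gene. Peaks were kept by filterByExpr of edgeR 4.0.16 (minimum count 10, total 15) and genes by a mean sum of at least 5 CPM, which kept all 533. Log2(value + 1) was tested by limma-trend (version 3.58.1 of limma in R 4.3.3), with all 9 libraries in 1 fit, with Benjamini-Hochberg adjustment over all peaks or genes tested, at an FDR of 0.05. Fold changes are on that scale, which understates low values. Shares were compared by exact permutation tests. Alternatives were pseudocounts of 0.25 and 5, no filter, edgeR, DESeq2 1.42.0, TMM scaling, 2 groups alone, a replicate block, thresholds of 15 and 30 peaks and leaving out each library. Both fits were tested on simulated data for Stat6_KO against WT, with 50 peaks or genes changed at each fold. At FDR 0.05 the peak fit recovered 88% of 4-fold, 34% of 2-fold, 0% of 1.5-fold and 0% of 1.25-fold changes. The gene fit recovered 94%, 86%, 30% and 0% in the same order. Of 61 peak calls 0 were false, and of 111 gene calls 6 were. The changed peaks and genes were drawn from all that pass the filter, so these rates are not those of the 533 genes alone. The median standard error was 0.08 on the log2 scale in the 533 genes, against 0.19 over all genes. Recovery within the 533 genes was not simulated. The counts of 0 that passed are therefore not read as excluding small changes.

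Named genes are the 12 with most peaks, the 8 with the highest sum, up to 5 per list, the 3 smallest p in each direction per comparison for genes and peaks, and 5 each with exactly 20 and 19 peaks. Any other gene was named with its values known. The genes and lists were chosen with earlier results of these data known. Of the naive CD4 T cell list, 1 of 10 genes had 20 peaks. Some items that these rules name are not reported here.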

Additional observations from a re-analysis of the deposited data

How the results depend on the processing

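Of 849 values under alternatives, 825 were classed as unchanged, 19 passed a threshold that the reported value missed and 5 share differences changed sign. A median log2 difference was classed as unchanged when it moved by less than the SD between libraries within groups, whatever its sign. Leaving out 1 library, the median over peaks reached -0.00483 in Stat6_KO against WT (reported 0.0111). In Il21e_KO against WT it reached 0.00537 (reported -0.0416). The number of peaks past FDR 0.05 (reported as 0) was 4 in Stat6_KO against WT with the 2 groups alone and 0 to 10 over the fits that leave out 1 library. In Stat6_KO against Il21e_KO it was 1 with no filter and 0 to 1 over the fits that leave out 1 library. The number of genes (reported as 0) was 6 in Stat6_KO against WT with the 2 groups alone, 0 to 9 when leaving out 1 library, and 0 to 5 in Il21e_KO against WT. Among the fits that leave out 1 library, these calls came only without Il21e_KO 1, and the fit of Stat6_KO and WT alone leaves it out too. Of reads outside TSS peaks only, an alternative chosen after seeing the data, the share differences were -0.0963, 0.0705 and -0.167 points for Stat6_KO against WT, Il21e_KO against WT and Stat6_KO against Il21e_KO (reported as 0.124, -0.186 and 0.310), and the cause was not tested. The TSS share of the genes' reads in Il21e_KO against WT (0.556 points) ranged from -1.21 to 1.45 when leaving out 1 library, and was below 0 without WT 3 (-0.336) and without Il21e_KO 1 (-1.21). Deviations of same-numbered libraries from their group means had no common sign, with correlations from -0.298 to 0.393 over genes. Unlike-numbered libraries of different groups ranged from -0.446 to 0.369. Same-numbered libraries of WT and Il21e_KO correlated at 0.349, -0.121 and 0.393. With the replicate number as a block, 0 peaks and 0 genes passed in each comparison. Of 17422 peaks, 10663 held fewer reads than the filter asks for and were not tested.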
